A study of Bos indicus x Bos taurus with 11 samples.

Results

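The matrix metalloproteinases (MMP), the ADAM and ADAMTS proteases and their tissue inhibitors (TIMP) were followed in skin fibroblasts of bovine fetuses. The genes were taken by name, as every row of the count table called MMP, ADAM or ADAMTS with a number, or TIMP1 to TIMP4. This gave 55 of 27398 rows, of which 19 were MMP, 13 ADAM, 19 ADAMTS and 4 TIMP genes. Cells were primary cultures grown in medium with fetal bovine serum, taken at day 105 of gestation from F1 crosses between the Brahman (Bos taurus indicus) breed and the Angus (Bos taurus taurus) breed. The 6 fetuses with large offspring syndrome (LOS), an overgrowth condition of ruminants compared with human Beckwith-Wiedemann syndrome, were conceived by assisted reproduction and exceeded a body weight limit set from the controls. The controls (CON_B) were 5 fetuses conceived by artificial insemination and labelled healthy. The LOS group held 3 males and 3 females, and the control group 3 males and 2 females. Each library came from 1 fetus, and conception method and overgrowth cannot be told apart between these groups.

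MMPs and most ADAM and ADAMTS proteins are zinc-dependent proteases that are made as inactive precursors. MMPs cut collagens and other matrix proteins, ADAMs release growth factors and receptors from the cell surface, and ADAMTS enzymes are secreted and act on proteoglycans, procollagens and microfibrils. TIMPs bind the active sites of these enzymes, so that fibroblasts set the turnover of skin matrix by making the proteases and their inhibitors together. Many of the enzymes are regulated after translation, by activation and inhibition, which RNA levels do not show.

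The libraries held 12084822 to 19297167 estimated reads. Levels are given as CPM, read counts scaled to a common library size but not to gene length, so levels are compared between libraries and not between genes. The fibroblast markers summed to 51931 to 66710 CPM in LOS libraries and 55224 to 64377 CPM in control libraries. Macrophage and leukocyte markers summed to at most 0.821 CPM in LOS libraries and 1.18 CPM in control libraries, keratinocyte markers to 2.38 to 24.4 CPM in LOS libraries, with the highest in LOS 1, and 3.56 to 10.7 CPM in control libraries, and endothelial markers to at most 5.02 CPM in LOS libraries and 5.21 CPM in control libraries. Melanocyte and Schwann markers summed to 39.9 to 88.8 CPM in LOS libraries and 39.0 to 165 CPM in control libraries, most of it MITF, and their other tested gene NGFR averaged 0.862 ± 0.751 CPM in LOS and 5.95 ± 5.87 CPM in control libraries (log2 difference -2.75 ± 1.00, unadjusted p = 0.019, edgeR). Pericyte markers summed to 134 to 280 CPM in LOS libraries and 124 to 273 CPM in control libraries. Most of this was CSPG4, which averaged 180 CPM in LOS and 161 CPM in control libraries, and RGS5 averaged 2.67 and 1.19 CPM. Muscle markers reached at most 2.42 CPM in LOS and 2.33 CPM in control libraries, and cartilage markers 10.1 CPM in LOS and 22.3 CPM in control libraries. The 8 proliferation markers summed to 113 to 379 CPM in LOS libraries (median 164) and to 144 to 323 CPM in control libraries (median 290).

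The fibroblasts read 38 of the 55 genes above the filter on low counts, and these took 1.06% to 1.45% of all counts in LOS libraries and 1.17% to 1.43% in control libraries. The 17 genes below the filter were MMP1, MMP3, MMP8, MMP12, MMP13, MMP20, MMP24, MMP25, ADAM11, ADAM22, ADAM23, ADAM32, ADAMTS8, ADAMTS13, ADAMTS18, ADAMTS19 and TIMP4. None of these 17 averaged more than 0.760 CPM, their highest count in any library was 68 reads (MMP3 in control 1), and 7 of them had under 10 reads in all libraries together. Among enzymes that can make the first cut in fibrillar collagen, MMP1, MMP8 and MMP13, grouped here as collagenases, were all in that set. MMP1 had at most 0.574 CPM in LOS libraries (LOS 1) and 1.90 CPM in control libraries (control 3). MMP8 and MMP13 had 0 reads in all 6 LOS libraries, while control 3 had 0.0679 CPM of MMP8, and controls 1 and 4 had 0.270 and 0.148 CPM of MMP13.

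Of these 17 genes, 6 lay in 1 cluster. Per the count table's coordinates (build ARS-UCD1.2), MMP13, MMP12, MMP3, MMP1, MMP8, MMP27 and MMP20 follow each other on the plus strand of chromosome 15, from 5670942 to 6089843. These 7 genes together drew 8 to 35 reads per LOS library and 13 to 102 reads per control library, and MMP27 alone passed the filter (0.164 to 1.03 CPM in LOS libraries, 0.0494 to 0.883 CPM in control libraries). Of other members that lie next to each other, ADAM9 and ADAMTS15 passed the filter and their neighbours ADAM32 and ADAMTS8 did not. The neighbours ADAMTS5 and ADAMTS1 on chromosome 1 both passed it. ADAM9 averaged 205 CPM in LOS libraries and 174 CPM in control libraries, and ADAM32, which starts 3.62 kb after it on chromosome 27, had at most 0.164 CPM in LOS libraries and 0.282 CPM in control libraries. ADAMTS15 had 12.2 to 65.0 CPM in LOS libraries and 9.78 to 89.1 CPM in control libraries, whereas ADAMTS8, at 26.2 kb from it on chromosome 29 and on the other strand, had 0 reads in LOS libraries and at most 0.135 CPM in control libraries.

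The first comparison asks whether the protease and inhibitor genes differ between LOS and control fibroblasts. None of the 38 tested genes passed an adjusted p of 0.05 in edgeR's quasi-likelihood test, and neither did any other gene in the table (0% of 16946). DESeq2 and limma voom also called none of the 38. Adjusted p-values of the members ran from 0.932 to 0.999. Of the 38 genes, 19 were higher and 19 lower in LOS (49.8% of all tested genes were higher), with a median log2 difference of 0.0021 against -0.00070 over all genes. No member had LOS and control libraries that did not overlap (background 0.230%), and 2 members, MMP9 and ADAMTS12, had an absolute log2 difference of 1 or more (background 2.63%).

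At an unadjusted p under 0.05 stood 4 of the 38 members (10.5%), against 4.44% of all tested genes. ADAM17, ADAMTS20 and MMP9 were higher in LOS (2.48% of all genes) and ADAMTS2 was lower (1.95%). That count depended on single libraries: it was 1 without LOS 2, LOS 6 or control 4, 2 without LOS 3, control 1 or control 5, and 6 without control 2. It was also 2 with limma voom, 1 with group as the only term and 6 with no filter on low counts. The values of these genes are therefore given per library as descriptions of the fetuses, starting with the secreted MMPs.

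**Figure D1:**
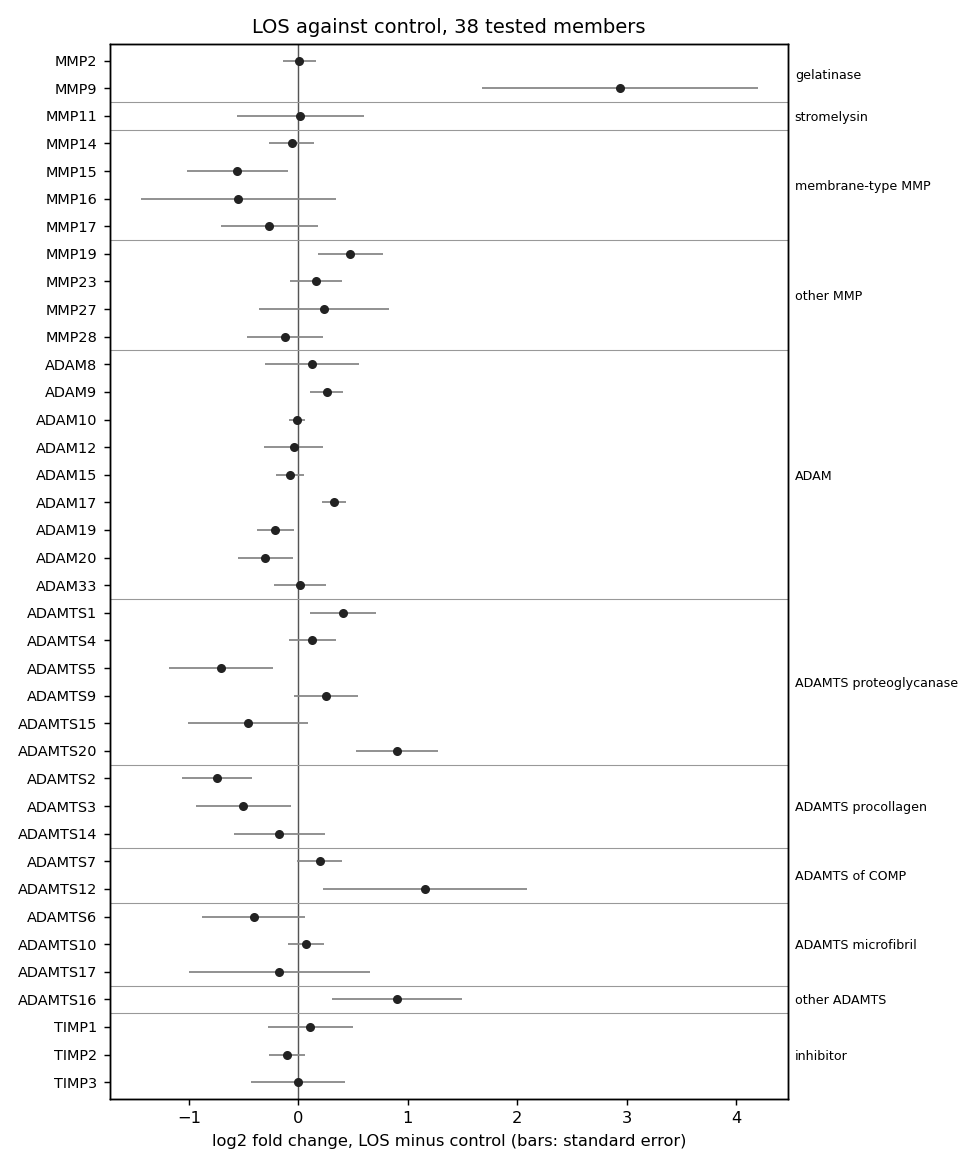
Log2 difference (LOS minus control) of the 38 tested genes, grouped by role; points are estimates and bars are standard errors. Values run from -0.74 (ADAMTS2) to 2.93 (MMP9), and none passed the adjusted threshold.

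MMP2 (gelatinase A), which degrades denatured and basement membrane collagen, had 4221, 5281 and 7586 CPM as lowest, median and highest value in LOS libraries, against 5069, 5877, 5697, 5137 and 5183 CPM in controls 1 to 5. The LOS libraries lay on both sides of the controls, with LOS 4 at the top and LOS 3 at the bottom, and the log2 difference was 0.01 ± 0.15 (SE; adjusted p = 0.996, edgeR). MMP9 (gelatinase B), typical of macrophages and keratinocytes in skin, had 0, 1.09, 0, 9.83, 0.151 and 15.97 CPM in LOS 1 to 6, against 0.203, 0.395, 0.883, 0.295 and 0.212 CPM in controls 1 to 5. The signal was almost all in the males LOS 4 and LOS 6, with 134 and 302 reads, while LOS 1 and LOS 3 had none and the other libraries had 2 to 15. Its log2 difference was 2.93 ± 1.26 (adjusted p = 0.932, edgeR) and 2.204 without LOS 6. In LOS 4 and LOS 6 the macrophage and leukocyte markers summed to 0.147 and 0 CPM. Their keratinocyte markers summed to 3.01 and 2.38 CPM, the 2 lowest keratinocyte sums of all libraries. Keratinocyte sums were mostly CDH1 (5.18 CPM on average in LOS and 3.96 CPM in control libraries) and KRT10 (2.50 CPM in both groups). KRT14, KRT15 and TP63 stayed under 1 CPM in every library, and which cells made MMP9 was not tested. In bulk RNA, more cells that make a transcript and more of it per cell cannot be told apart.

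MMP11 (stromelysin 3), a fibroblast MMP activated inside the secretory pathway, ran from 3.04 CPM in LOS 1 to 21.8 CPM in LOS 5 (median 16.5), against 10.9, 38.6, 5.64, 16.6 and 4.45 CPM in the controls. The controls spread more widely than the LOS libraries, and control 2 stood at the top of all. The log2 difference was 0.02 ± 0.58 (adjusted p = 0.998, edgeR). MMP19, a secreted MMP of skin, had a lowest, median and highest value of 11.8, 23.9 and 38.5 CPM in LOS libraries, against 15.3, 25.5, 9.78, 14.8 and 22.03 CPM in controls. Its log2 difference was 0.48 ± 0.30 (adjusted p = 0.932, edgeR) and 0.18 without LOS 6.

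All 4 tested membrane-type MMPs, which work at the cell surface, were lower in LOS (median log2 difference -0.41), and none passed the test. MMP14 turned to 0.11 without control 2, 0.0036 without control 4, 0.018 without LOS 1 and 0.024 with the replicate block. MMP14 (MT1-MMP), the main activator of proMMP2, had 1817, 2330 and 3006 CPM in LOS libraries, against 2443, 3503, 1745, 2698 and 1802 CPM in controls. Both groups spanned much the same range, and the log2 difference was -0.06 ± 0.20 (adjusted p = 0.979, edgeR). MMP15 had 2.87, 6.09 and 8.09 CPM in LOS libraries, against 8.71, 17.6, 4.42, 11.7 and 2.19 CPM in controls, where controls 1, 2 and 4 lay above every LOS library. Its log2 difference was -0.56 ± 0.46 (adjusted p = 0.932, edgeR) and -0.19 without control 2. MMP16 was read unevenly within both groups, with 12.1, 1.38, 0.980, 1.54, 8.46 and 0.264 CPM in LOS 1 to 6, against 6.48, 1.43, 9.51, 3.10 and 10.4 CPM in controls. Each group held cultures above 6 CPM and cultures below 2 CPM. Its log2 difference was -0.55 ± 0.89 and ranged from -1.38 without LOS 1 to -0.17 without LOS 6 (adjusted p = 0.959 with all libraries, edgeR). MMP17 (log2 difference -0.26 ± 0.44), MMP23 (0.16 ± 0.23), MMP27 (0.23 ± 0.59) and MMP28 (-0.12 ± 0.35) complete the tested MMPs.

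Among the ADAMs, 4 of 9 tested genes were higher and 5 lower in LOS. ADAM17 (TACE) releases tumour necrosis factor and ligands of the epidermal growth factor receptor. It had 86.8, 93.8 and 127 CPM in LOS libraries, against 70.99, 84.4, 90.6, 77.4 and 79.4 CPM in controls. The lowest LOS library, LOS 4, lay below control 3, and the other 5 LOS libraries lay above every control. The log2 difference was 0.33 ± 0.11, with an unadjusted p of 0.013 and an adjusted p of 0.932 (edgeR), and it ranged from 0.24 without LOS 6 to 0.38 without LOS 4. Its relative ADAM10, which cuts Notch receptors, was the least variable member, with 76.7 to 92.4 CPM in LOS libraries and 80.2 to 90.8 CPM in control libraries.

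ADAM9, a membrane-anchored sheddase, had 165, 183 and 312 CPM in LOS libraries, against 163, 150, 211, 159 and 186 CPM in controls. LOS 6 stood far above the rest, and the log2 difference of 0.26 ± 0.15 (adjusted p = 0.932, edgeR) was 0.12 without it. ADAM19 had 95.8, 137 and 207 CPM in LOS libraries, against 170, 175, 156, 157 and 156 CPM in controls. The controls lay close together and LOS libraries lay on both sides of them, with a log2 difference of -0.21 ± 0.17 (adjusted p = 0.932, edgeR). It was -0.40 without LOS 4 and -0.11 without LOS 6. ADAM12, which is expressed in mesenchymal cells and cuts insulin-like growth factor binding proteins, had 208, 264 and 474 CPM in LOS libraries, against 346, 261, 411, 151 and 340 CPM in controls. ADAM33 had 181, 397 and 438 CPM in LOS libraries, against 288, 469, 325, 386 and 271 CPM in controls. The groups overlapped over most of their range for both genes, with log2 differences of -0.04 ± 0.27 and 0.01 ± 0.23. ADAM20, a gene best known from testis, had 1.31, 1.85 and 2.56 CPM in LOS libraries, against 2.30, 1.63, 3.60, 2.36 and 2.40 CPM in controls (log2 difference -0.30 ± 0.25). It lies inside MED6 on the same strand, at 8.46 CPM on average, so how reads were divided between these genes is uncertain. The other tested ADAMs, ADAM8 and ADAM15, had log2 differences of 0.13 ± 0.43 and -0.08 ± 0.13.

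**Figure D2:**
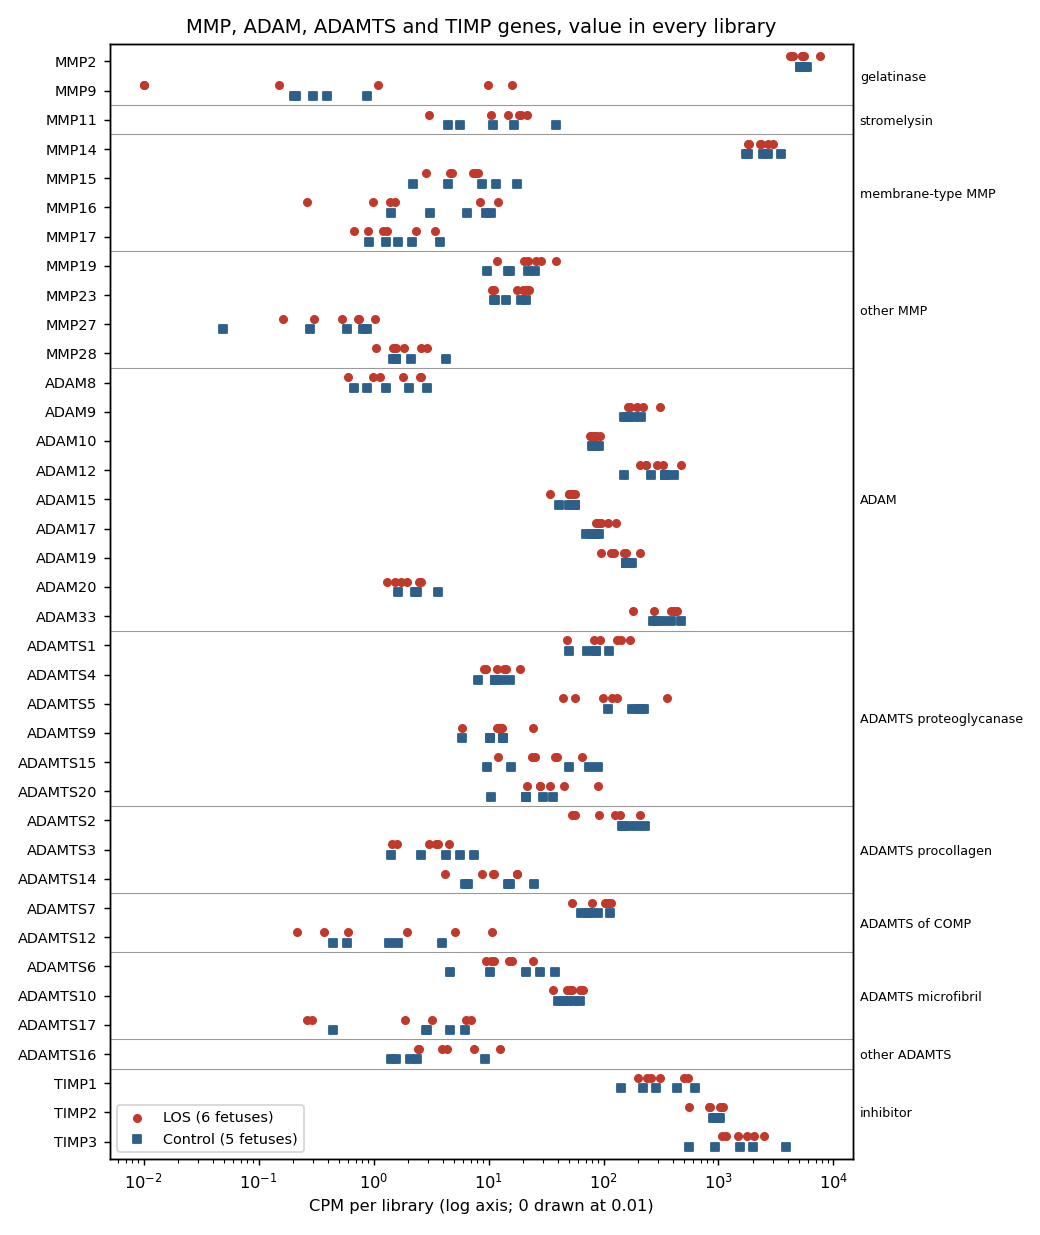
CPM of the 38 tested genes in each library on a log axis, grouped by role, with LOS libraries (circles) above controls (squares) in each row and values of 0 drawn at the left edge. MMP9 reached 9.83 and 15.97 CPM in 2 LOS libraries only, and ADAMTS2 and ADAMTS5 were lowest in those same libraries (LOS 4 and LOS 6).

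All 3 ADAMTS procollagen N-proteinases, which remove the amino-terminal propeptide of fibrillar procollagens, were lower in LOS (median log2 difference -0.50), again without passing the test, and ADAMTS14 turned to 0.11 without control 2 and 0.048 without LOS 1. ADAMTS2, whose loss causes dermatosparaxis, a skin fragility of cattle and sheep, had 208, 92.0, 125, 56.7, 140 and 53.4 CPM in LOS 1 to 6, against 196, 144, 148, 228 and 166 CPM in controls 1 to 5. The LOS libraries 2 to 6 lay below every control, and LOS 1 lay within the controls. The log2 difference was -0.74 ± 0.32, with an unadjusted p of 0.039 and an adjusted p of 0.932 (edgeR), and it ranged from -0.99 without LOS 5 to -0.57 without LOS 6. ADAMTS3 had 1.44, 3.27 and 4.51 CPM in LOS libraries, against 5.67, 1.43, 7.47, 2.61 and 4.31 CPM in controls (log2 difference -0.50 ± 0.44, and -0.22 without control 1). ADAMTS14 had 4.19, 11.1 and 17.6 CPM in LOS libraries, against 14.7, 24.9, 15.5, 6.59 and 6.28 CPM in controls (log2 difference -0.17 ± 0.41). Outside the family, BMP1, the C-proteinase that removes the other propeptide, averaged 144 ± 12.3 CPM in LOS libraries and 164 ± 5.97 CPM in control libraries (SD, n = 6 and n = 5), a log2 difference of -0.19 ± 0.08 (unadjusted p = 0.027, edgeR).

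Of the 6 tested ADAMTS proteoglycanases, 4 were higher and 2 lower in LOS (median log2 difference 0.19), and 0 passed the adjusted test. ADAMTS4, among the 4, turned to -0.02 without LOS 6 and to -0.0095 with the replicate block. ADAMTS5, an aggrecanase that also cuts versican, had 358, 99.1, 130, 56.7, 118 and 44.8 CPM in LOS 1 to 6, against 201, 108, 177, 211 and 224 CPM in controls. LOS 1 was the highest library of all and LOS 4 and LOS 6 the lowest, so that the log2 difference of -0.71 ± 0.47 (adjusted p = 0.932, edgeR) was -1.06 without LOS 1 and -0.44 without LOS 6. The proliferation markers summed to 379, 113, 192, 185, 118 and 142 CPM in LOS 1 to 6, against 294, 232, 144, 290 and 323 CPM in controls 1 to 5. LOS 1 was highest in both, but the lowest sums were in LOS 2 and LOS 5, whose ADAMTS5 lay above that of LOS 4 and LOS 6. Over the 11 libraries ADAMTS5 and this sum had r = 0.68 (permutation p = 0.022) and rho = 0.79 (permutation p = 0.0061), with r = 0.58 without the 2 libraries farthest in that sum. ADAMTS2 had r = 0.62 and rho = 0.75 (permutation p = 0.041 and 0.010; r = 0.54 without 2 libraries). ADAM17 had r = -0.66 and rho = -0.66 (permutation p = 0.022 and 0.030, and r = -0.75 without 2 libraries). Of like strength were ADAMTS7, with r = -0.69 and rho = -0.67 (permutation p = 0.022 and 0.028, and r = -0.49 without 2 libraries), and ADAMTS4. The latter had r = -0.65 and rho = -0.71 (permutation p = 0.032 and 0.018, and r = -0.58 without 2 libraries). None of the 38 members passed Benjamini-Hochberg adjustment in this family (adjusted permutation p = 0.279 for r and 0.189 for rho with ADAMTS5, 0.312 and 0.189 with ADAMTS2, 0.279 and 0.227 with ADAM17). ADAMTS20, known from pigment cell survival in mouse skin, had 21.5, 31.1 and 90.2 CPM in LOS libraries, against 21.3, 10.5, 29.7, 21.0 and 36.4 CPM in controls. Its log2 difference of 0.90 ± 0.37 (unadjusted p = 0.034, adjusted p = 0.932, edgeR) was 0.47 without LOS 6, the library at 90.2 CPM.

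ADAMTS1, which lies 92.4 kb from ADAMTS5 on chromosome 1, had 48.5, 111 and 170 CPM in LOS libraries, against 86.3, 71.6, 86.8, 113 and 49.9 CPM in controls (log2 difference 0.41 ± 0.30, and 0.23 without LOS 5). ADAMTS4, the other classical aggrecanase, had 9.12, 12.7 and 18.9 CPM in LOS libraries, against 11.3, 15.4, 12.8, 11.3 and 8.12 CPM in controls (log2 difference 0.13 ± 0.21). ADAMTS9 had 5.87, 12.6 and 24.1 CPM in LOS libraries, against 10.3, 13.4, 5.91, 13.3 and 10.4 CPM in controls (log2 difference 0.26 ± 0.29, and 0.07 without LOS 3). The groups overlapped for these 3 genes. For ADAMTS1, LOS 2, LOS 3 and LOS 5 (170, 130 and 143 CPM) lay above every control. The same held for LOS 6 with ADAMTS4 and for LOS 3 with ADAMTS9. ADAMTS15 had a log2 difference of -0.46 ± 0.55.

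The remaining ADAMTS genes act on cartilage oligomeric matrix protein (COMP), on microfibrils, or on other matrix targets. ADAMTS7 and ADAMTS12, which cut COMP, were higher in LOS without passing the test. ADAMTS7 had 53.4, 104 and 115 CPM in LOS libraries, against 63.7, 114, 73.4, 89.2 and 74.7 CPM in controls (log2 difference 0.19 ± 0.21). ADAMTS12 had 5.09, 0.218, 1.96, 0.367, 0.604 and 10.7 CPM in LOS 1 to 6, against 1.35, 0.444, 3.94, 0.590 and 1.62 CPM in controls. Its log2 difference of 1.16 ± 0.93 turned to -0.18 without LOS 6. ADAMTS16 had 2.42, 4.16 and 12.5 CPM in LOS libraries, against 2.09, 1.43, 9.24, 2.41 and 1.55 CPM in controls. LOS 6 was the highest LOS library and control 3 stood apart from the other controls, so that the log2 difference of 0.90 ± 0.59 was 0.37 without LOS 6 and 1.56 without control 3. Of the microfibril group, ADAMTS17 had 1.89, 3.19, 6.41, 0.294, 7.03 and 0.264 CPM in LOS 1 to 6, against 6.28, 0.444, 2.92, 2.85 and 4.66 CPM in controls. LOS 4, LOS 6 and control 2 stood below all others, and the log2 difference was -0.17 ± 0.83, turning to 0.33 without control 1. ADAMTS6 and ADAMTS10 had log2 differences of -0.41 ± 0.47 and 0.07 ± 0.16.

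The inhibitors showed no difference between the groups that exceeded the spread of the cultures. TIMP1, a secreted inhibitor encoded on the X chromosome, had 199, 286 and 548 CPM in LOS libraries, against 287, 141, 434, 221 and 629 CPM in controls (log2 difference 0.11 ± 0.39, adjusted p = 0.982, edgeR). TIMP2, which both inhibits MMPs and takes part with MMP14 in proMMP2 activation, had 559, 936 and 1090 CPM in LOS libraries, against 1034, 984, 995, 897 and 933 CPM in controls. Only LOS 6 stood clearly below the rest, and the log2 difference was -0.10 ± 0.16 (adjusted p = 0.957, edgeR), or 0.02 without LOS 6. TIMP3, which is held in the matrix and also inhibits ADAM17 and ADAMTS4 and ADAMTS5, had 1066, 1623 and 2506 CPM in LOS libraries, against 1991, 550.2, 3850, 924 and 1534 CPM in controls. The lowest and the highest value of all were both controls, and the log2 difference was -0.00 ± 0.43 (adjusted p = 0.999, edgeR). TIMP4 had 0.147 to 0.582 CPM in LOS libraries and 0 to 0.988 CPM in control libraries and was not tested. TIMP1, TIMP3 and TIMP4 lie inside the synapsin genes SYN1, SYN3 and SYN2 on the opposite strand, and those averaged 0.979, 0.188 and 0.702 CPM. The sources used here do not say whether counting used strand, so reads of TIMP4 and SYN2, which are of like level, cannot be told apart.

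Differences between individual cultures were wide for many of these genes. The biological coefficient of variation (BCV), edgeR's estimate of the relative spread between fetuses after counting error, group and sex, had a median of 37.2% over the 38 members and 22.5% over all genes tested. When each gene was ranked among genes of like level (10 bins of mean CPM), 18 of the 38 members (47.4%) fell in the top 10% of their bin, where 10.0% of all genes lie by construction. This count was 16 without LOS 4 and 20 without control 2. Without regard to level, 11 members (28.9%) lay above the 90th percentile of all genes (10.0%). The members in the top 10% for their level were MMP9, MMP11, MMP15, MMP16, MMP19, ADAM12, TIMP1, TIMP3 and 10 ADAMTS genes: ADAMTS1, ADAMTS2, ADAMTS5, ADAMTS6, ADAMTS12, ADAMTS14, ADAMTS15, ADAMTS16, ADAMTS17 and ADAMTS20. BCV was 128% for MMP9, 98.1% for ADAMTS12, 93.3% for MMP16, 90.8% for ADAMTS17 and 64.2% for MMP11, against 18.4% for MMP2, 15.1% for ADAM17 and 11.5% for ADAM10. The range from the lowest to the highest library was 46.0-fold for MMP16, 8.01-fold for ADAMTS5, 6.999-fold for TIMP3, 1.797-fold for MMP2 and 1.21-fold for ADAM10.

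**Figure D3:**
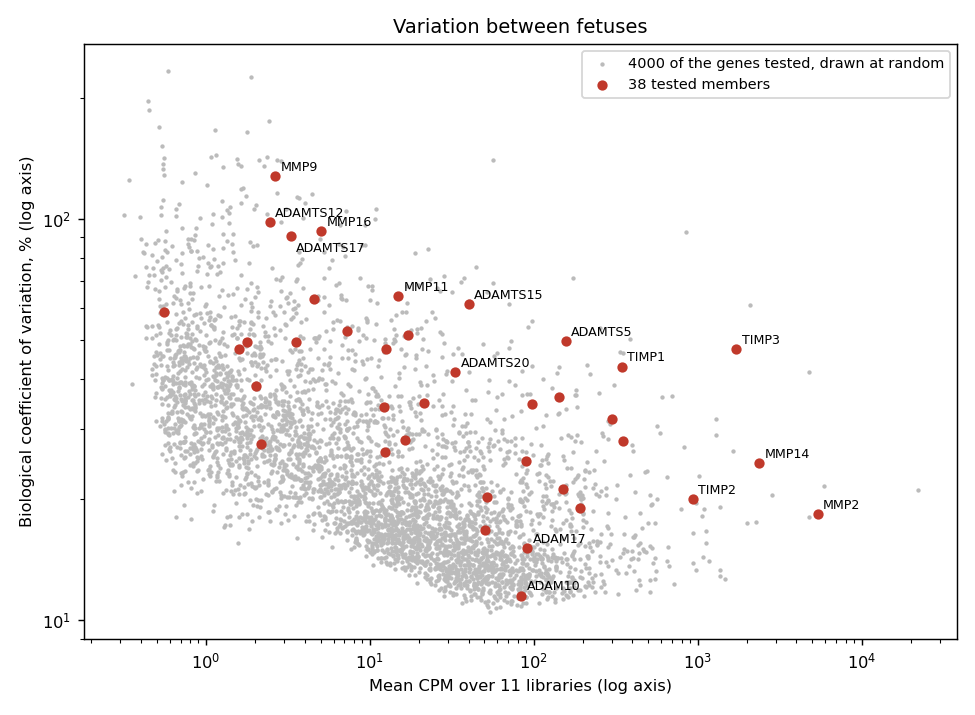
BCV (%) against mean CPM over the 11 libraries (both axes log) for the 38 tested members (large points) and for a random draw of all tested genes (small points). Many members lie along the upper edge of the cloud, with MMP9 highest at 128% and ADAM10 lowest at 11.5%.

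Some members varied together from fetus to fetus. Over the 38 members, 703 pairs were correlated across the 11 libraries on log2 CPM, and 8 passed a Benjamini-Hochberg adjusted permutation p of 0.05 for Pearson's r (5 positive, 3 negative). With Spearman's rho 4 pairs passed. The 8 called pairs were 1.14% of the member pairs. Absolute r of at least their smallest value, 0.857, was reached by 0.326% of all pairs of tested genes. These shares rest on different criteria, and the limit on r was taken from the called member pairs themselves. All 8 pairs kept their sign when the 2 libraries farthest from the median of the first gene were left out. Pairs called for a high absolute r in these same libraries were unlikely to change sign, so this is a weak check. Genes in several pairs share the same libraries, so the pairs are not independent of each other. The 8 pairs were computed without regard to group, and 15 pairs passed after each group's mean was subtracted.

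The strongest negative relation joined the surface protease MMP14 to TIMP1, which inhibits most MMPs but MMP14 only weakly, with r = -0.96 (permutation p = 5e-05, adjusted p = 0.014) and rho = -0.88 (permutation p = 0.00062, adjusted p = 0.073). It was -0.95 without the 2 farthest libraries and -0.94 within the 6 LOS libraries. Control 2 had the most MMP14 (3503 CPM) and the least TIMP1 (141 CPM), and controls 3 and 5, LOS 1 and LOS 6 had the least MMP14 (1745 to 1827 CPM) with TIMP1 at 434 to 629 CPM. LOS and control libraries lay along the same line. MMP11 followed MMP14 (r = 0.89, rho = 0.85, adjusted permutation p = 0.017 and 0.080; 0.91 without 2 libraries) and ran against TIMP1 (r = -0.90, rho = -0.92, adjusted permutation p = 0.017 and 0.046; -0.87 without 2 libraries). ADAMTS10 and ADAM33 joined this set. ADAM33 with ADAMTS10 had r = 0.91, rho = 0.91 and an adjusted permutation p of 0.014 and 0.046 (0.83 without 2 libraries). ADAMTS10 with MMP11 had r = 0.91, rho = 0.89 and an adjusted permutation p of 0.016 and 0.063 (0.88 without 2 libraries). ADAM33 with MMP11 had r = 0.89, rho = 0.87 and an adjusted permutation p of 0.017 and 0.080 (0.76 without 2 libraries).

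ADAMTS2 and ADAMTS5, on chromosomes 7 and 1, had r = 0.93 (permutation p = 4e-05, adjusted p = 0.014) and rho = 0.92 (permutation p = 0.00017, adjusted p = 0.046), and r = 0.82 without the 2 farthest libraries. Within the 6 LOS libraries r was 0.96, with LOS 1 highest and LOS 4 and LOS 6 lowest in both genes. The neighbours ADAMTS1 and ADAMTS5 did not vary together detectably (r = -0.01, rho = -0.18, permutation p = 0.976 and 0.594, adjusted p = 0.994 and 0.852; r = -0.25 without 2 libraries). The last pair was ADAM15 with ADAMTS12, at r = -0.86 and rho = -0.85 (adjusted permutation p = 0.018 and 0.080; -0.83 without 2 libraries).

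**Figure D4:**
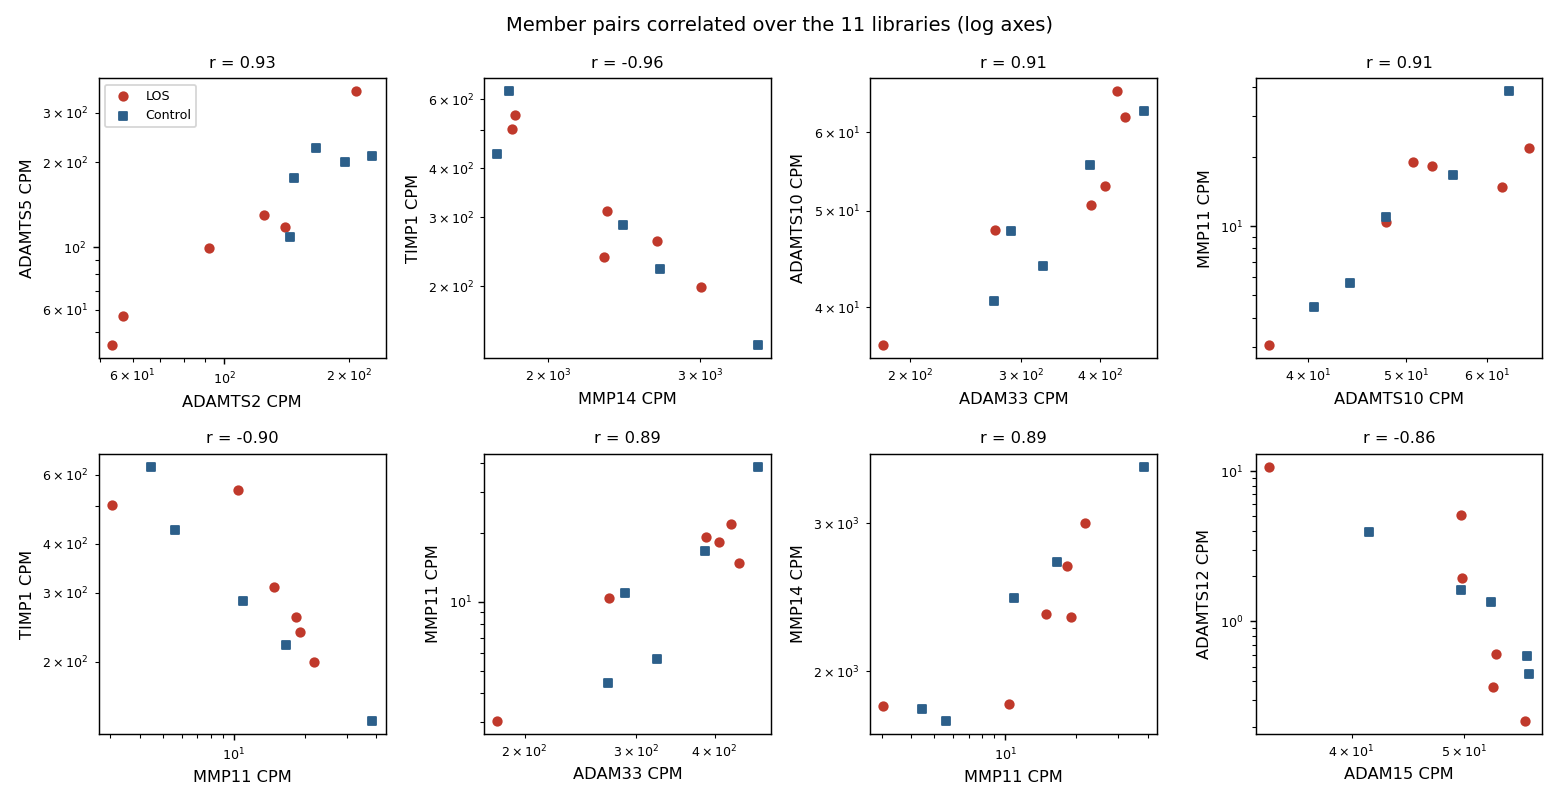
CPM (log axes) of the 8 called member pairs in the 11 libraries, with LOS fetuses as circles and controls as squares. MMP14 is lower where TIMP1 is higher (r = -0.96) and ADAMTS2 is higher where ADAMTS5 is higher (r = 0.93), with libraries of both groups along each trend.

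The second comparison was between the sexes. No member differed between males and females at an adjusted p of 0.05 in edgeR's test (0.0472% of all genes did), and DESeq2 also called none. At an unadjusted p under 0.05 stood 1 member of 38, MMP9 (3.30% of all genes), and it was higher in males (1.51% of all genes were so, and 1.79% were lower in males). MMP9 averaged 4.56 ± 6.75 CPM in males and 0.337 ± 0.451 CPM in females (SD, n = 6 and n = 5; log2 difference 3.09 ± 1.27, unadjusted p = 0.033 and adjusted p = 0.999, edgeR), which again rests on LOS 4 and LOS 6. ADAM9 averaged 209 ± 56.0 CPM in males and 169 ± 16.7 CPM in females (log2 difference 0.32 ± 0.15), ADAMTS20 averaged 37.8 ± 26.3 CPM in males and 27.8 ± 13.1 CPM in females, and ADAMTS9 averaged 10.3 ± 3.55 CPM in males and 14.4 ± 5.56 CPM in females.

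Whether the LOS difference depended on sex was tested as an interaction, for which 42 members passed the filter. None passed the adjusted threshold with edgeR or DESeq2 (0% of 17583 genes with edgeR), and 1 of 42 had an unadjusted p under 0.05 (4.95% of all genes, 2.57% with a positive and 2.38% with a negative interaction). This was ADAMTS5, at 73.2 CPM in LOS males and 204 CPM in control males, against 196 CPM in LOS females and 155 CPM in control females. The 3 LOS males lay at 44.8 to 118 CPM, below the 3 control males at 177 to 224 CPM, while LOS females (99.1 to 358 CPM) and control females (108 and 201 CPM) overlapped. The interaction was -1.82 ± 0.75 on the log2 scale (unadjusted p = 0.036, adjusted p = 0.921, edgeR). The next smallest p were of MMP14 (0.73 ± 0.37), ADAMTS4 (0.75 ± 0.39) and MMP25 (-3.64 ± 1.91), with an adjusted p of 0.921 each (edgeR). MMP25 had at most 19 reads in a library and averaged 0.408 CPM in LOS males and 0.659 CPM in control males, against 0.269 CPM in LOS females and 0.0247 CPM in control females.

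Since the parents were of different breeds, reads over sites where they differ could be assigned by the authors to the maternal or the paternal allele. The allelic table held 22 members, and 11 of them had enough reads to be tested. Over all genes the maternal share was 50.5% to 50.9% per library. Parent of origin and breed cannot be told apart with the labels given.

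ADAM12 was read more from the paternal allele in all 11 libraries. Its maternal share was 44.0% ± 2.79 in LOS libraries and 45.02% ± 2.70 in control libraries (SD, n = 6 and n = 5), from 1137 to 2666 allelic reads per library. Maternal over paternal gave a log2 ratio of -0.32 ± 0.05 (edgeR), and the exact paired permutation test over libraries, two-sided, gave p = 0.000977 (adjusted p = 0.018 over all 5700 genes tested). In all, 4 of 11 members (36.4%) differed between the alleles in edgeR's test, against 20.5% of all genes. Paternal reads were higher in 1 of the 11 members (9.09%, against 10.3% of all genes) and maternal reads in 3 of 11 (27.3%, against 10.2%). ADAM9 had 53.8% ± 3.61 in LOS and 51.9% ± 5.07 in control libraries, with 9 of 11 libraries above 50%. ADAMTS7 had 53.0% ± 4.75 in LOS and 52.8% ± 4.93 in control libraries, with 8 of 11 above 50%. ADAMTS5 had 49.2% ± 15.4 in LOS and 60.3% ± 5.03 in control libraries, with 7 of 11 above 50%. These 3 did not pass the exact permutation test (adjusted p = 0.165, 0.199 and 0.473). The count of 4 was 1 without control 3, 4 or 5 or LOS 4, 2 without control 2, LOS 1 or LOS 6, and 3 without control 1, LOS 2 or LOS 3, and ADAM12 passed in each of these fits. The other tested members had log2 ratios of maternal over paternal reads of 0.26 ± 0.10 (ADAMTS1), 0.10 ± 0.09 (ADAM17), 0.09 ± 0.10 (ADAMTS10), 0.13 ± 0.15 (MMP11), -0.03 ± 0.07 (ADAMTS2), -0.06 ± 0.13 (ADAMTS14) and -0.13 ± 0.14 (ADAMTS6). The 11 members that were not tested had 0.273 to 29.8 allelic reads per library on average.

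The maternal share did not differ between LOS and control in any of the 11 members after adjustment with edgeR (0% of 5700 genes) or by the exact permutation test, and 1 of 11 had an unadjusted p under 0.05 in edgeR's test (4.32% of all genes). This was ADAMTS5, with 59.7%, 38.4%, 33.3%, 75.0%, 43.4% and 45.2% maternal reads in LOS 1 to 6, against 57.7%, 56.9%, 67.9%, 63.0% and 56.1% in controls 1 to 5. All 5 controls lay above 50%, while LOS libraries lay on both sides, but LOS 3 and LOS 4 had only 6 and 16 allelic reads. The difference was -0.58 ± 0.25 in log2 odds (unadjusted p = 0.029, adjusted p = 0.999, edgeR) and -11.1 points with an exact permutation p of 0.160, two-sided, and the log2 odds ranged from -0.92 without LOS 1 to -0.38 without LOS 2. In the authors' share-adjusted table, the maternal allele of ADAMTS5 averaged 68.2 ± 72.1 CPM in LOS libraries and 111 ± 28.5 CPM in control libraries (SD, n = 6 and n = 5), and the paternal allele 66.3 ± 47.0 CPM in LOS and 73.0 ± 21.1 CPM in control libraries.

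ADAMTS1 had a maternal share of 49.7% ± 5.08 in the 5 LOS libraries with reads and 57.6% ± 3.81 in the 5 controls, a difference of -7.97 points (exact permutation p = 0.032 before adjustment, two-sided). In edgeR's test its log2 odds were -0.38 ± 0.20 (adjusted p = 0.999). ADAMTS14 differed by -5.61 points (exact permutation p = 0.173) and ADAMTS2 by 2.70 points (exact permutation p = 0.219). For ADAMTS2 both alleles were lower in LOS in the share-adjusted table, at 55.9 ± 25.2 CPM in LOS and 85.5 ± 21.0 CPM in control libraries for the maternal allele and at 56.6 ± 33.5 CPM in LOS and 90.9 ± 17.2 CPM in control libraries for the paternal allele. Such values are total counts multiplied by the share. With maternal shares of 51.0% in LOS and 48.3% in control libraries, they restate the lower total of ADAMTS2. MMP28, an MMP of skin and other epithelia, and ADAMTS16 had too few reads to be tested. The maternal share of MMP28 lay below 50% in all 9 libraries with reads, from 11.5 allelic reads per library on average. Of its pooled allelic reads 33.9% were maternal (95% Clopper-Pearson interval 25.7% to 42.8%, covering counting error only). ADAMTS16 lay below 50% in 6 libraries and above it in 0, with 36.9% of its pooled reads maternal (31.7% to 42.4%). That pooled share rests largely on LOS 6, with 172 allelic reads and a maternal share of 33.7%. Control 3, the next deepest library with 84 allelic reads, lay at 50%. The remaining libraries with reads had 5 to 36 each, so a bias shared by the fetuses cannot be read from the pooled value.

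**Figure D5:**
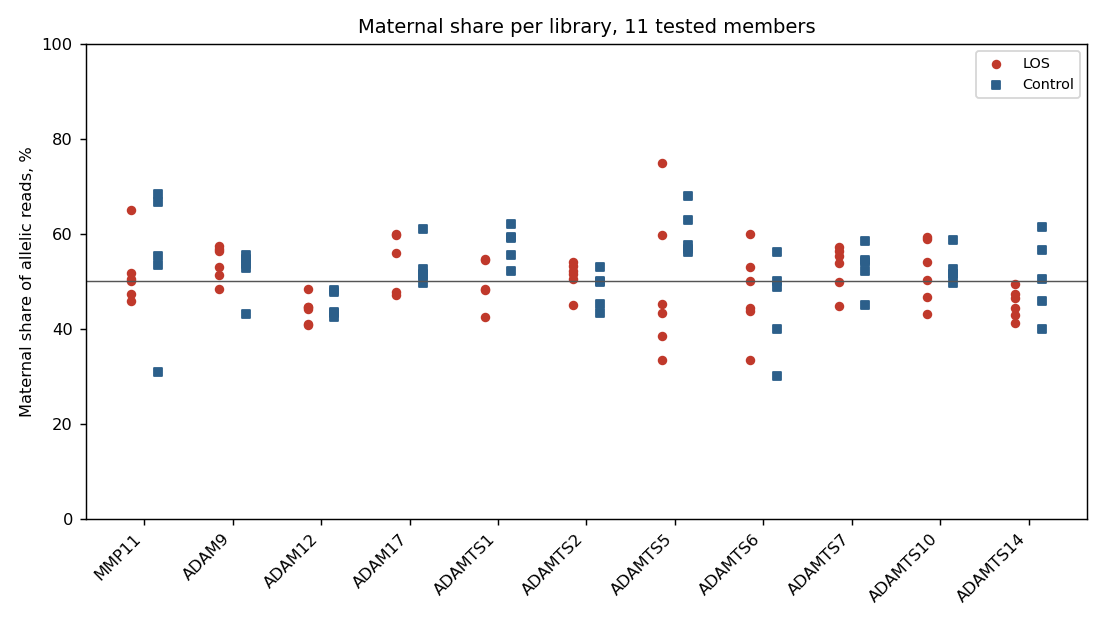
Maternal share (%) of allelic reads per library for the 11 tested members, with LOS libraries (circles) left of controls (squares), with a line at 50%. ADAM12 lies below 50% in all 11 libraries, and ADAMTS5 lies above 50% in all 5 controls and on both sides in LOS.

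Partners of these proteases outside the families were counted from lists of known genes, and 0 of their members passed the adjusted test. In the plasminogen and proMMP activation list 6 of 9 tested genes were higher and 3 lower in LOS, with PLAU (urokinase) at a log2 difference of 0.33 ± 0.18 and SERPINE2, a urokinase inhibitor, at -1.28 ± 0.70. Of the other inhibitors and surface regulators 6 of 9 were higher, with SPOCK2 at -0.97 ± 0.31 (below 1 CPM on average in both groups) and THBS2, which promotes uptake of MMP2 by cells, at 0.27 ± 0.21. All 3 tested genes of the procollagen C-proteinase list were lower, BMP1 as above and PCOLCE2, an enhancer of that cleavage, at -0.76 ± 0.60. Of the other pericellular proteases 4 of 10 were higher, with cathepsin S (CTSS) at -1.11 ± 0.35 and PAPPA2, which frees insulin-like growth factors, at 1.10 ± 0.50. Of the ADAMTS-like proteins, which lack the protease domain, 2 of 5 were higher, with ADAMTSL1 at 0.49 ± 0.28 and ADAMTSL3 at -1.17 ± 0.72.

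Of the genes for ADAM10 and ADAM17 substrates 8 of 18 tested were higher and 10 lower, with a median log2 difference of -0.06. HBEGF, a growth factor that ADAM17 releases, averaged 1.51 ± 1.08 CPM in LOS and 0.574 ± 0.548 CPM in control libraries (log2 difference 1.38 ± 0.65), and CXCL16 averaged 12.1 ± 6.68 CPM in LOS and 17.3 ± 6.78 CPM in control libraries (-0.67 ± 0.31). Of the proteoglycan substrates of ADAMTS enzymes 1 of 4 was higher. Versican (VCAN) averaged 806 ± 594 CPM in LOS and 1123 ± 358 CPM in control libraries (-0.70 ± 0.36), and aggrecan (ACAN) 0.674 ± 0.803 CPM in LOS and 5.51 ± 8.29 CPM in control libraries (-3.40 ± 1.45). The ACAN medians were close, at 0.315 CPM in LOS and 0.346 CPM in control libraries, and controls ran from 0 to 19.02 CPM. Of 13 tested genes for inducers of MMP transcription, 12 were higher and 1 lower in LOS (median 0.22), where 49.8% of all tested genes were higher. ETS1 stood at 0.42 ± 0.20 and FOS, a part of AP-1, at 0.46 ± 0.25. Log2 differences of the 12 ran from 0.02 to 0.51, and 0 of the 13 had an unadjusted p under 0.05 (edgeR). IL1B, IL6 and CXCL8, inflammatory signals of the same list, stayed under 1 CPM in every library.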

How the data were processed

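Per the labels' protocols, total RNA of 11 primary fibroblast cultures was depleted of ribosomal RNA and sequenced as paired ends. Among the tools in the submitters' processing notes are Salmon 0.11.1, StringTie 2.1.4, HISAT2 2.1.0 and edgeR 3.36.0, and the build is ARS-UCD1.2. Which step used which tool, and whether strand was used, is not stated there. The authors deposited expected counts (estimated reads) per gene, whole counts of reads per parental allele, and expected counts multiplied by the allelic share. Library totals were 12084822 to 19297167, and members whose counts are low are known least precisely.

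Expected counts were rounded and fitted in R 4.3.3 with edgeR 4.0.16, using TMM factors, the filterByExpr filter given the design, and quasi-likelihood F tests with sex and group as terms over all 16946 genes that passed, Benjamini-Hochberg adjusted, at 0.05. Log2 differences have LOS, or males, on top, and the SE is the absolute log2 difference divided by the square root of F. An unadjusted p under 0.05 is no call. CPM are rounded counts over TMM library sizes. Allelic reads were tested with a term for each library, for autosomal genes that averaged at least 20 allelic reads and had at least 10 in 3 or more libraries of each group; exact permutation tests were two-sided over libraries. Correlations used 100000 permutations, which can give no p below 1e-05. BCV is edgeR's tagwise value, ranked within 10 bins of mean CPM. The edgeR fit was also run on simulated counts with set group changes and no sex effect. How many of those changes it recovered is not given here.

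The members and all gene lists were chosen with earlier results of these data known. The correlations between members and with the proliferation marker sum, and the ranking of BCV, were chosen after the data were seen. Named members were the 6 with the smallest p in each direction, the 8 with the highest CPM, the 5 with the largest BCV, the TIMP genes, and the 4 with the smallest p for sex, interaction, allelic share and allele (30 genes); of each list outside the families the 2 tested genes with the smallest p were named. Other members are named where a count needed them. The planned split of members by a zinc-binding motif was not made, since no protein sequences were used here. Alternatives were DESeq2 1.42.0, limma 3.58.1 voom, other scaling factors and filters, group alone, no assembled loci, each library left out, and a replicate block. Replicates were separate fetuses, and no 2 libraries of a group were alike within counting noise. Figures were drawn with matplotlib 3.10.9.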

Additional observations from a re-analysis of the deposited data

Results flagged for a closer look

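Of 70 groups of libraries examined, 2 held a library that stood apart from the others by Dixon's test at the 95% level, and chance alone flags about 1 in 20. ADAMTS16 had 9.24 CPM in control 3, against 1.43 to 2.41 CPM in the other 4 controls; its log2 difference between LOS and control was 1.56 without that library and 0.90 with it. The maternal share of ADAM9 was 43.1% in control 1, against 52.7% to 55.5% in the other 4 controls, from 462 allelic reads there; the log2 ratio of maternal over paternal reads was 0.23 without that library and 0.18 with it. No member moved in opposite directions in males and females with groups that did not overlap.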

How the results depend on the processing

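The count of members past the adjusted threshold was 0 under every setting run for LOS against control, for the sexes, for the interaction and for the allelic share. Over all genes DESeq2 gave 5 calls for LOS against control, 22 for the sexes (8 with edgeR, 3 to 7 with 1 library left out) and 6 for the interaction. The allelic share gave 0 to 1 calls with 1 library left out. Members at an unadjusted p under 0.05 for LOS against control numbered 2 with limma voom, 1 with group alone, 2 with the replicate block and 1 to 6 with 1 library left out, against 4. Members that differed between the alleles numbered 1 by the exact permutation test and 1 to 4 with 1 library left out. Correlated pairs numbered 12 with library totals and 15 with group means subtracted, against 8. The planned correlation within the chromosome 15 MMP cluster and its alternatives were not run, because no cluster member averaged 1 CPM.

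Of 278 log2 differences of named genes under other settings 17 were reversed. MMP2 was -0.0019 with upper quartile factors, -0.058 with library totals, -0.00997 with voom and -0.0013 with group alone. ADAM33 was -0.058 with totals and -0.011 with voom, and MMP11 was -0.070 with totals, -0.020 with voom and -0.076 with group alone. TIMP3 was 0.0019 with no filter, 0.20 with voom and 0.13 with the replicate block. The replicate block also turned MMP14 (0.024), TIMP1 (-0.052), ADAMTS12 (-0.37), ADAMTS17 (0.049) and ADAMTS4 (-0.0095). Deviations of same-numbered libraries of the 2 groups correlated at -0.15 to 0.24, which cannot show whether these libraries shared anything beyond the number. With 1 library left out, 12 genes had a reversed value: MMP2 -0.12 to 0.076, MMP14 -0.18 to 0.11, MMP11 -0.26 to 0.65, TIMP1 -0.15 to 0.37, TIMP2 -0.19 to 0.016, TIMP3 -0.28 to 0.42, ADAM12 -0.22 to 0.11, ADAM33 -0.064 to 0.18, ADAMTS12 -0.18 to 1.66, ADAMTS14 -0.40 to 0.11, ADAMTS17 -1.36 to 0.33 and ADAMTS4 -0.02 to 0.29. The cause was not tested. Counts limit the genes under about 1 CPM, and allelic reads limit shares such as that of ADAMTS5.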
